A study of Homo sapiens with 6 samples.

Results

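Promoter peaks that gained accessibility with dimethyl-α-ketoglutarate (dm-αKG) are described here, gene by gene. A promoter peak was a region of accessible chromatin whose centre lay within 1 kb of a start of a protein-coding transcript in GENCODE 44. An opening promoter peak was one whose mean CPM (counts scaled to a common total per library) with dm-αKG exceeded the control mean by at least 0.7 on the log2 scale, with all 3 dm-αKG libraries above all 3 control libraries. Of 171517 peaks in the table, 45627 were promoter peaks, and 1387 of these met the rule (3.04%). The mirrored rule, which asks for the same difference in the other direction, was met by 418 promoter peaks. Since the rule selected peaks on their CPM with and without dm-αKG, these values are given as a description, and no test of the treatment on the opening peaks is offered as support.

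The assay was ATAC-seq, in which a transposase cuts open chromatin and inserts sequencing adapters. The 6 libraries were made from naive human embryonic stem (nES) cells labelled as the line H9, grown in tt2iLGö, a medium with inhibitors of MEK, GSK3 and protein kinase C and with human LIF. Both groups came from feeder-depleted cells on laminin at low oxygen, and differed in the last 24 h, when 3 libraries had 0 mM and 3 had 4 mM dm-αKG in the medium. The labels name the first group DMSO, and it is called control here. A check of the counts against the labelled line did not match in 6 of 6 libraries, so the line is given only as labelled. Of 7 naive pluripotency markers, 6 had a promoter peak, with a median of 22.1 CPM over their strongest peaks, and the markers of trophectoderm (4 of 5), primitive endoderm (4 of 4) and primitive streak (3 of 3) also had such peaks, at medians of 13.98, 8.84 and 9.67 CPM, so that promoter accessibility alone did not set the labelled cell type apart. Each library had between 13025674 and 26828622 counts in peaks. The share of these counts that fell in promoter peaks was 40.6% to 40.9% in the control libraries and 42.3% to 43.8% in the dm-αKG libraries, and the part of this difference in the results below was not tested. In such bulk libraries, a larger open fraction of the cells and more cutting per cell cannot be told apart.

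A transcript start is usually covered by a strong accessible peak where the polymerase and general transcription factors load, and weaker peaks can lie around it, upstream or within the first exon and intron. dm-αKG is a cell-permeable ester of α-ketoglutarate, an intermediate of the citric acid cycle. α-Ketoglutarate is also the co-substrate of the dioxygenases that demethylate histones and DNA and that hydroxylate the hypoxia-inducible factors.

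Sequences are shown for opening peaks of large ratio whose central 200 bp hold either of 2 short motifs, 2 whole peaks that overlap no exon for each motif, taken in order of ratio. The first is TGACNNNGC, which belongs to the antioxidant response element bound by NRF2, and the second is TGANTCA, the palindrome bound by AP-1 (JUN and FOS). Capitals mark the match, and the printed strand is the plus strand of hg38. The peak with the largest ratio of all, in the first intron of an ERBB2 transcript at chr17:39703480-39703679, and a peak upstream of RFFL, a gene of the minus strand, at chr17:35063958-35064202, each hold 1 match to the first motif on the minus strand. The peaks in the first intron of MUSK at chr9:110687661-110687860 and upstream of CLIP4 at chr2:29130392-29130604 each hold 1 match to the second. At CLIP4 this match overlaps one to the first motif on the minus strand, and the capitals mark the second motif only.
ERBB2: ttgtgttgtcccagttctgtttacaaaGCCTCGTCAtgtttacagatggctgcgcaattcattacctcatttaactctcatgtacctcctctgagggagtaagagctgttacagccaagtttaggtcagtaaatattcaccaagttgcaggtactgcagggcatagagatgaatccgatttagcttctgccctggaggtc
RFFL: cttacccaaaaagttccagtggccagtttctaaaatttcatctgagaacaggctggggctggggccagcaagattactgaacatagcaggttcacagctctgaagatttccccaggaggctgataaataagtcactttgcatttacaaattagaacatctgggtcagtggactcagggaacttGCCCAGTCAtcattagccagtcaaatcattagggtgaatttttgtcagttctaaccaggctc
MUSK: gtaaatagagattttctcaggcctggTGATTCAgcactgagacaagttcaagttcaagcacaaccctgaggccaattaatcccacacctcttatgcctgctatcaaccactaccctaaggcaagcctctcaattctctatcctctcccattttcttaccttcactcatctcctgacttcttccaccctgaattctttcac
CLIP4: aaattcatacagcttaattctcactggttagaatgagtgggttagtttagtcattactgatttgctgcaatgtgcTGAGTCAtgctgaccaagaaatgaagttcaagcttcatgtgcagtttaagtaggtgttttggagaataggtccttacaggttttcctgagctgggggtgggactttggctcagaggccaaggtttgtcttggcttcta

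For 8 further opening peaks with an AP-1 motif, again in order of ratio, 29 bases around the match are shown, since several overlap exons. They lie at chr19:44213082-44213110 (ZNF227), chr1:223665778-223665806 (CAPN8), chr2:27283063-27283091 (TRIM54), chr6:36679425-36679453 (CDKN1A), chr4:1290885-1290913 (MAEA), chr16:57377302-57377330 (CX3CL1), chr17:77323232-77323260 (SEPTIN9) and chrX:15749747-15749775 (CA5B).
ZNF227: ttaagaaggatTGAGTCAtcgggctccaa
CAPN8: ccagaaggaagTGAGTCAtggccagggac
TRIM54: cagagcaagcaTGAGTCAgcagctgccct
CDKN1A: tagcgaggaggTGACTCActgtgacaagg
MAEA: ctgctggggtgTGAATCAggcttctctgt
CX3CL1: gaggctgcaggTGAGTCAgtctgaggttc
SEPTIN9: cagggccggcaTGAGTCAtggagtggtga
CA5B: ggcaaagcatgTGAGTCAgtcctcaggac

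In all, 19 motifs were searched on both strands within 100 bp of each centre. AP-1 was found in 65 opening peaks (4.69%), against 2.85% of all promoter peaks, 3.11% of those that met the mirrored rule and 6.33% of all peaks of the table. Promoter peaks 100 bp or more downstream of the start held it in 2.47% of cases, and the opening peaks there in 4.59%. Among peaks of less than 60% GC the shares were 8.37% of opening peaks and 5.59% of promoter peaks, and at 60% GC or more they were 2.96% and 1.90%. Of the 19 motifs, 6 had a larger share in the opening peaks than in all promoter peaks and 13 a smaller one. FOX factors (TGTTTAC) and GATA factors (AGATAA) stood above all promoter peaks much as AP-1 did, with 2.09% against 1.31% and 4.11% against 2.60%. The ERBB2 sequence printed above also holds TGTTTAC on both sides of its capitals. Peaks of the mirrored rule held FOX in 1.67% of cases and GATA in 4.55%, so the GATA share was not particular to the opening peaks. At 60% GC or more, GATA had 2.54% of opening peaks and 1.27% of promoter peaks, and at less than 60% GC 7.47% and 6.46%. The NRF2 motif had nearly equal shares in the opening peaks (9.59%) and all promoter peaks (9.53%). Of 10 opening peaks with both motifs, 7 had matches that overlapped. Smaller shares of the opening peaks than of all promoter peaks held the motifs of ETS factors (CCGGAAG, 2.52% and 7.17%), NFY (CCAAT, 9.81% and 18.4%), SP and KLF factors (GGGCGG, 41.5% and 52.98%) and the full cAMP response element (TGACGTCA, 0.216% and 1.06%), whereas the TATA box (TATAAA) had 2.38% and 1.94%. The full cAMP response element was found in just 3 opening peaks. Among peaks 100 bp or more downstream the differences were smaller. ETS had 2.41% of opening and 3.90% of promoter peaks there, and NFY 8.14% and 11.2%. SP and KLF factors had 42.5% and 46.9%, and the full cAMP response element 0.115% and 0.204%. These shares were not tested, and a match is no evidence of binding.

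The opening peaks were mostly weak. Their median was 1.85 CPM in control and 3.36 CPM with dm-αKG, where all promoter peaks had medians of 5.24 and 5.78 CPM. When promoter peaks were split into 10 equal groups by control CPM, 1342 of the 1387 opening peaks (96.8%) lay in the lower 5 groups, and 608 in the lowest group, below 1.67 CPM. Of the 418 peaks of the mirrored rule, 299 lay in the lower 5. Control CPM is also the denominator of the ratio in the opening rule, so the rule itself favours peaks with low control values. The top 2 groups, from 13.8 CPM upward, held 0 opening peaks. Weak peaks have few counts behind them, and the median count of an opening peak in a library was 45, with 91 opening peaks below 10 counts in at least 1 library. Widths were close to those of other promoter peaks, with medians of 200 and 205 bp.

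**Figure D1:**
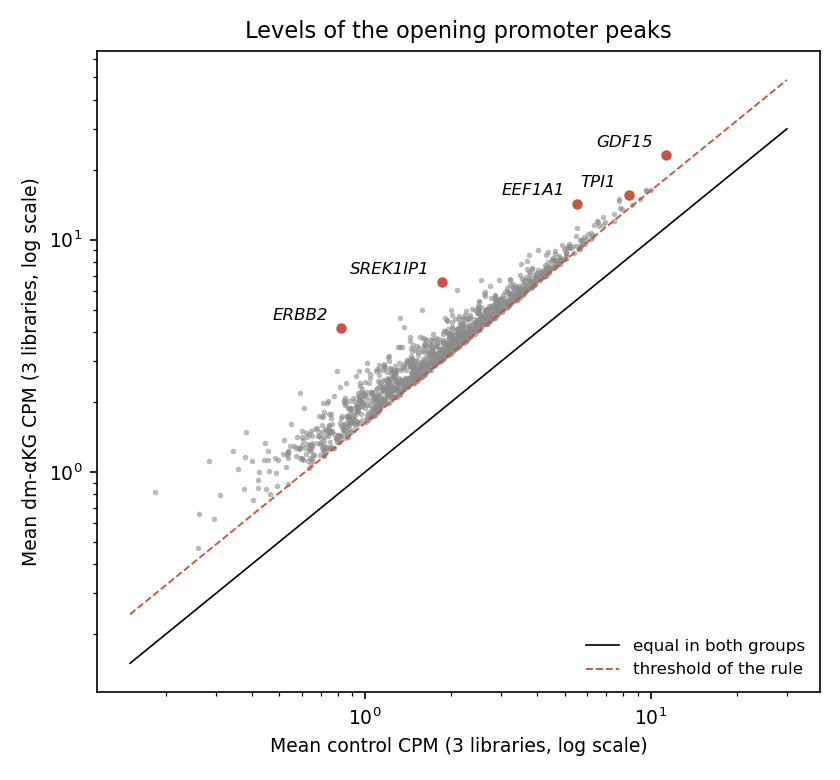
Mean control CPM (x) and mean dm-αKG CPM (y) of the opening promoter peaks, both on log axes, with 5 peaks named. All points lie above the dashed line of the rule by construction, most of them below 5 CPM in control, with GDF15 at the top right and ERBB2 farthest from the line of equal levels.

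The median log2 ratio of the opening peaks was 0.84, with an upper quartile of 0.98 and a maximum of 2.34. In edgeR, fitted on all peaks, their median log2 fold change was 0.82, against 0.11 for all promoter peaks and 0.01 for all peaks. Of the opening peaks, 1204 (86.8%) had an edgeR adjusted p below 0.05, a share that the rule itself raises, where 7.43% of all peaks and 10.6% of promoter peaks were called higher with dm-αKG. At an adjusted p below 0.01 and a log2 fold change above 1 these were 208 opening peaks, against 0.782% of all peaks. Without a minimum ratio, all 3 dm-αKG libraries lay above all 3 controls at 16.6% of all peaks and 23.7% of promoter peaks. Taken one by one, the control libraries had median log2 differences of -0.02, 0.05 and -0.03 from the control mean over the opening peaks, and the dm-αKG libraries 0.90, 0.89 and 0.76. Replicate 3 of dm-αKG was thus the least shifted, and it was also the shallowest library.

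The 3 opening peaks nearest the threshold were those at ACSF3 (2.84 CPM in control and 4.61 with dm-αKG), NKRF (1.56 and 2.53) and DPP10 (1.08 and 1.75), with log2 ratios that round to 0.70. The 3 peaks just below it were those at AKT1S1 (2.23 and 3.63), TPRG1L (1.29 and 2.10) and MAP1LC3B (2.74 and 4.45), which differ from the first 3 in ratio by less than the spread between replicates.

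Opening peaks lay downstream of the start more often than other promoter peaks. Their centres had a median position of +223 bp relative to the nearest coding transcript start, against -8 bp for all promoter peaks, and 69.9% lay downstream, against 47.1%. Between +100 and +750 bp lay 57.6% of the opening peaks and 32.8% of all promoter peaks. The share of promoter peaks that opened was lowest in the 100 bp before the start, at 1.08% (116 of 10727), and highest from +500 to +750 bp, at 7.28% (226 of 3105). The mirrored rule had another profile, with 3.09% from -1000 to -750 bp and 0.446% from +100 to +250 bp. Peaks near the start are stronger, and the opening peaks were weak. Positions are therefore also given within groups of control CPM, although control CPM enters the rule and is not held equal inside a group. In each of the 6 lowest groups of control CPM, a larger share of peaks more than 100 bp downstream opened than of those more than 100 bp upstream, and in the lowest group these were 16.1% and 9.59%. Peaks within 100 bp of the start did not open less often than upstream peaks there. They had 11.3% in group 1, the lowest, and 7.28% in group 2, where upstream peaks had 9.59% and 4.75%. The order was the other way in group 6 (0.554% and 0.662%) and group 8 (0% and 0.0848%). Position did not enter the rule beyond the 1 kb limit, but these shares were not tested, because neighbouring peaks are not independent.

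**Figure D2:**
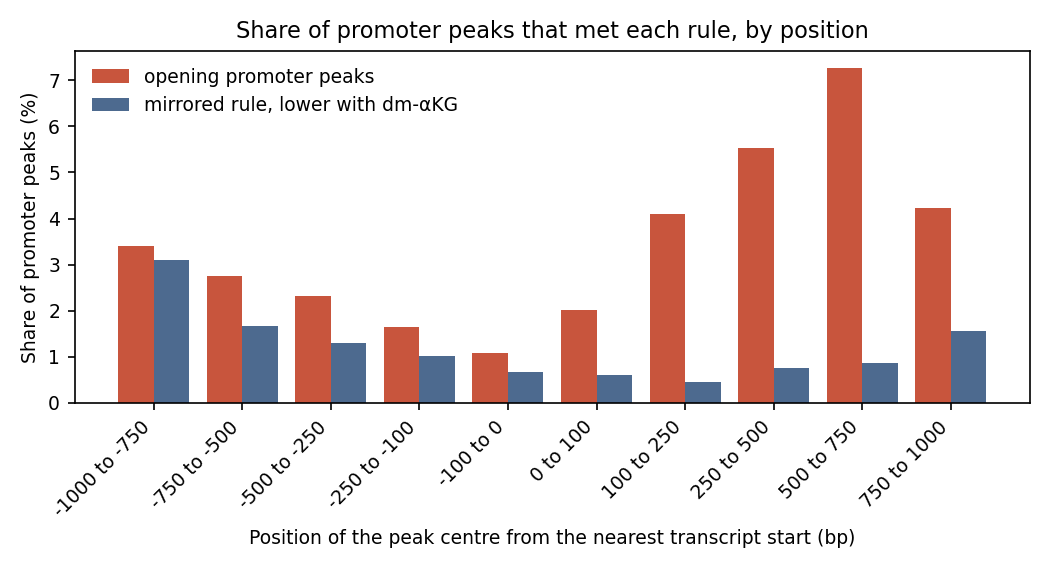
Share of all promoter peaks (y, %) in each interval of position from the nearest coding transcript start (x, bp) that met the opening rule (red) or the mirrored rule (blue). The red bars are lowest just before the start, at 1.08%, and highest from 500 to 750 bp downstream, at 7.28%.

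On the transcripts, 594 opening peaks (42.8%) had their centre in a first intron, where 24.2% of all promoter peaks lay. Coding exons held 169 (12.2% against 6.94%), untranslated exons 179 (12.9% against 15.1%), later introns 27, and 416 lay upstream (30.0% against 52.6%). The opening peaks had a median GC content of 65% and 13 CpGs in their central 200 bp, against 67% and 16 for all promoter peaks. In the peak lists that the authors called for each treatment, 96.2% of the opening peaks held a summit of the dm-αKG list and 45.6% one of the control list, so that 754 were found with dm-αKG only. All promoter peaks had 91.9% and 90.4%, and the peaks of the mirrored rule 42.8% and 98.6%. The lists were called from the same libraries that the rule used, so the rule itself favours such a difference.

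Most opening peaks, like most promoter peaks, were neighbours of a stronger peak. The 1387 peaks belonged to 1247 genes of the 15291 with a promoter peak (8.16%), by the nearest start. At 1258 of the opening peaks (90.7%), the same gene had a promoter peak with higher mean CPM, as it had at 66.5% of all promoter peaks and 74.6% of the peaks of the mirrored rule. The median of the stronger peaks was 14.02 CPM, against 2.56 CPM for the opening peaks beside them. Per base of peak width the stronger peak was higher by a median factor of 5.07, and its centre was a median of 617 bp away. The stronger peaks themselves differed little between the treatments, with a median log2 ratio of 0.13 (quartiles 0.02 and 0.25), and at 275 of the 1258 the ratio was negative. The strongest peaks of all genes had a median of 0.07. Conversely, 4.15% of promoter peaks that were not the strongest of their gene opened, and 0.844% of the strongest. Just 129 opening peaks were the strongest of their gene, of which 68 were the only one.

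**Figure D3:**
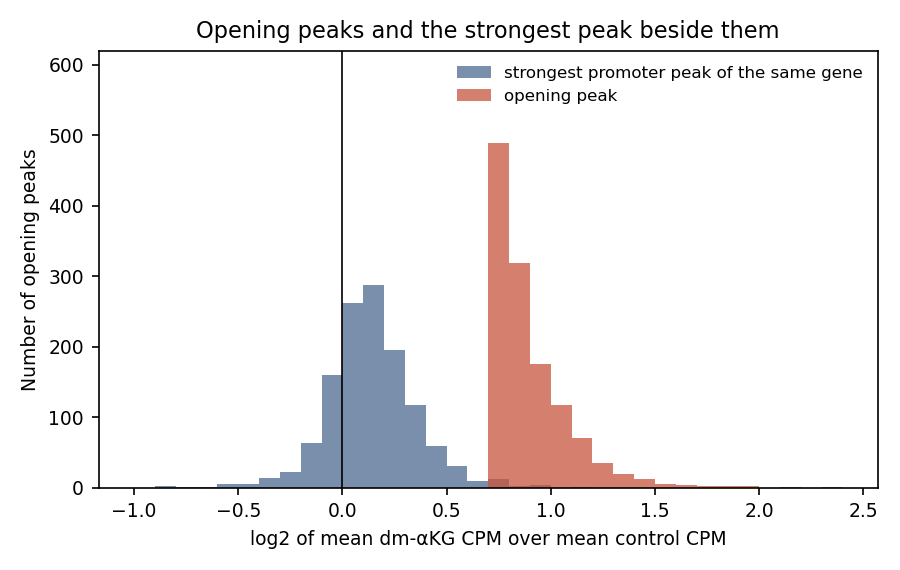
Distribution of the log2 ratio of dm-αKG over control CPM (x) for opening peaks that lie beside a stronger promoter peak of the same gene (red) and for that stronger peak (blue), counted per opening peak (y). The red bars begin at 0.7 by the rule, and the blue bars centre on 0.13.

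The largest ratio belonged to ERBB2, which encodes the receptor tyrosine kinase HER2. The peak at +386 bp from an alternative start had 0.773, 1.01 and 0.681 CPM in the controls and 4.17, 4.94 and 3.38 CPM with dm-αKG, a ratio of 5.07. A second opening peak of the same transcript, at chr17:39703205-39703404, went from 0.591, 0.547 and 0.928 to 2.12, 1.78 and 1.31 CPM. Every dm-αKG library was above every control at both peaks, as the rule requires. The strongest ERBB2 promoter peak, at chr17:39687815-39688029, had an edgeR log2 fold change of 0.31 ± 0.10 (standard error, adjusted p = 0.0244). SREK1IP1, which encodes a protein that interacts with a splicing regulator, had 1.77, 1.64 and 2.17 CPM in control and 6.19, 7.83 and 5.68 CPM with dm-αKG at +447 bp (chr5:64768140-64768347), within 1 kb of a start of CWC27 as well. Its start peak, at 124 bp, had an edgeR log2 fold change of 0.13 ± 0.08 (standard error, adjusted p = 0.291), and the opening peak was thus beside a start whose level was not shown to differ.

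SFSWAP, a splicing regulator, had 0.545, 0.547 and 0.681 CPM in control and 2.27, 1.98 and 2.30 CPM with dm-αKG in its first intron. At RFFL, which encodes a ubiquitin ligase, the upstream peak printed above went from 1.23, 1.14 and 1.61 to 3.95, 5.33 and 4.53 CPM. The peak at ANAPC11, a subunit of the anaphase-promoting complex, is also within 1 kb of a start of ALYREF and cannot be given to either gene. OAZ1, whose product inhibits polyamine synthesis, had 3 opening peaks, the first in a coding exon with 1.32, 2.06 and 1.36 CPM in control and 6.34, 5.93 and 2.69 CPM with dm-αKG. Replicate 3 was the lowest dm-αKG library there. SELENOW, which encodes a small selenoprotein, went from 0.863, 1.30 and 1.92 to 3.99, 4.87 and 3.76 CPM. The zinc finger genes ZNF227 and ZNF546 had log2 ratios of 1.97 and 1.95 from few counts, 10, 5 and 3 in control and 17, 13 and 24 with dm-αKG at the first and 7, 8 and 8 in control and 34, 32 and 14 with dm-αKG at the second. A further opening peak with a ratio in this range is counted throughout but not described. The remaining peak of these 10, at a gene known only by its identifier ENSG00000285837 and within 1 kb of ZNF365, had a log2 ratio of 1.84.

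**Figure D4:**
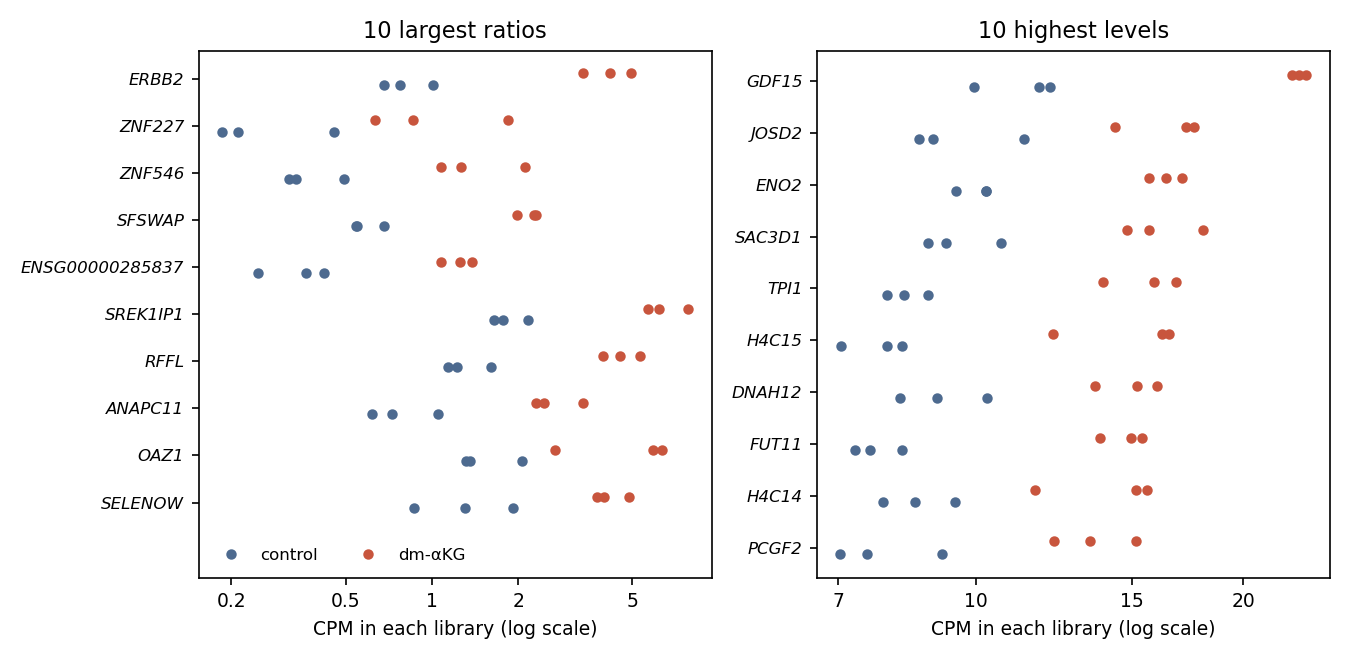
CPM of each library (x, log scale) for the 10 described opening peaks with the largest ratios (left) and the 10 with the highest mean CPM (right), controls in blue and dm-αKG in red, 3 points each. The groups are separate at every peak by the rule, and GDF15 has the highest levels.

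At the highest levels stood GDF15, which encodes a stress-induced cytokine. Its opening peak upstream of an alternative start (chr19:18374453-18374668) had 11.8, 9.97 and 12.1 CPM in control and 23.1, 22.7 and 23.6 CPM with dm-αKG, a ratio of 2.05 with little spread between the libraries. The peak of its canonical start, at chr19:18386059-18386276, was higher too, with an edgeR log2 fold change of 0.56 ± 0.09 (standard error, adjusted p = 6.09e-07). Of the other 9, FUT11, a fucosyltransferase, had 8.27, 7.32 and 7.61 CPM in control and 13.8, 15.4 and 14.97 CPM with dm-αKG, and TPI1, the triosephosphate isomerase of glycolysis, 8.32, 7.95 and 8.85 and then 16.8, 15.9 and 13.9 CPM. ENO2, the neuronal enolase, had an opening peak in the first intron, at 197 bp, that went from 10.3, 9.51 and 10.3 to 17.1, 16.4 and 15.7 CPM, whereas the strongest ENO2 promoter peak, at chr12:6915531-6915770, fell, with an edgeR log2 fold change of -0.68 ± 0.09 (standard error, adjusted p = 1.08e-08). PCGF2 (a Polycomb subunit), JOSD2 (a deubiquitinase), SAC3D1, DNAH12 and the histone genes H4C14 and H4C15 had log2 ratios between 0.70 and 0.95. H4C14 and H4C15 are near-identical copies, so that the division of reads between them is uncertain.

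Several genes had opening peaks at more than one place. One opening peak was found at 1126 genes, 2 at 108, 3 at 9, 4 at ATF4, CHD4 and DPM1, and 6 at SEPTIN9, a cytoskeletal GTPase gene with many alternative starts. ATF4 encodes the main transcription factor of the integrated stress response. Its 4 opening peaks, spread over chr22:39519588-39521197, had means of 2.91 ± 0.271, 2.41 ± 0.520, 2.66 ± 0.386 and 3.26 ± 0.363 CPM in control (SD, n = 3, in order along the chromosome), and 5.17 ± 0.290, 4.55 ± 0.752, 5.00 ± 0.991 and 5.71 ± 1.04 CPM with dm-αKG (SD, n = 3). The strongest ATF4 peak lies among them (chr22:39520026-39520230), with an edgeR log2 fold change of 0.27 ± 0.08 (standard error, adjusted p = 0.0128). EP300, the acetyltransferase p300, had 3 neighbouring opening peaks upstream of its start, and the one nearest the start had 3.00, 2.31 and 2.29 CPM in control and 8.46, 7.31 and 4.30 CPM with dm-αKG. Its strongest peak lay at -949 bp with 28.7, 31.5 and 26.7 CPM and then 35.9, 33.1 and 32.0 CPM. CHD4, the ATPase of the NuRD complex, had opening peaks with log2 ratios between 0.93 and 1.15, and those of SEPTIN9 lay between 0.72 and 1.18.

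The functions of the genes were read from 24 gene lists and 16 families of gene symbols, and from 9 further families chosen after the genes had been seen. Over all genes with a promoter peak, 8.16% had an opening peak, and 3.04% of all promoter peaks opened. No list was tested for enrichment, and genes with more promoter peaks have more chances to hold one.

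**Figure D5:**
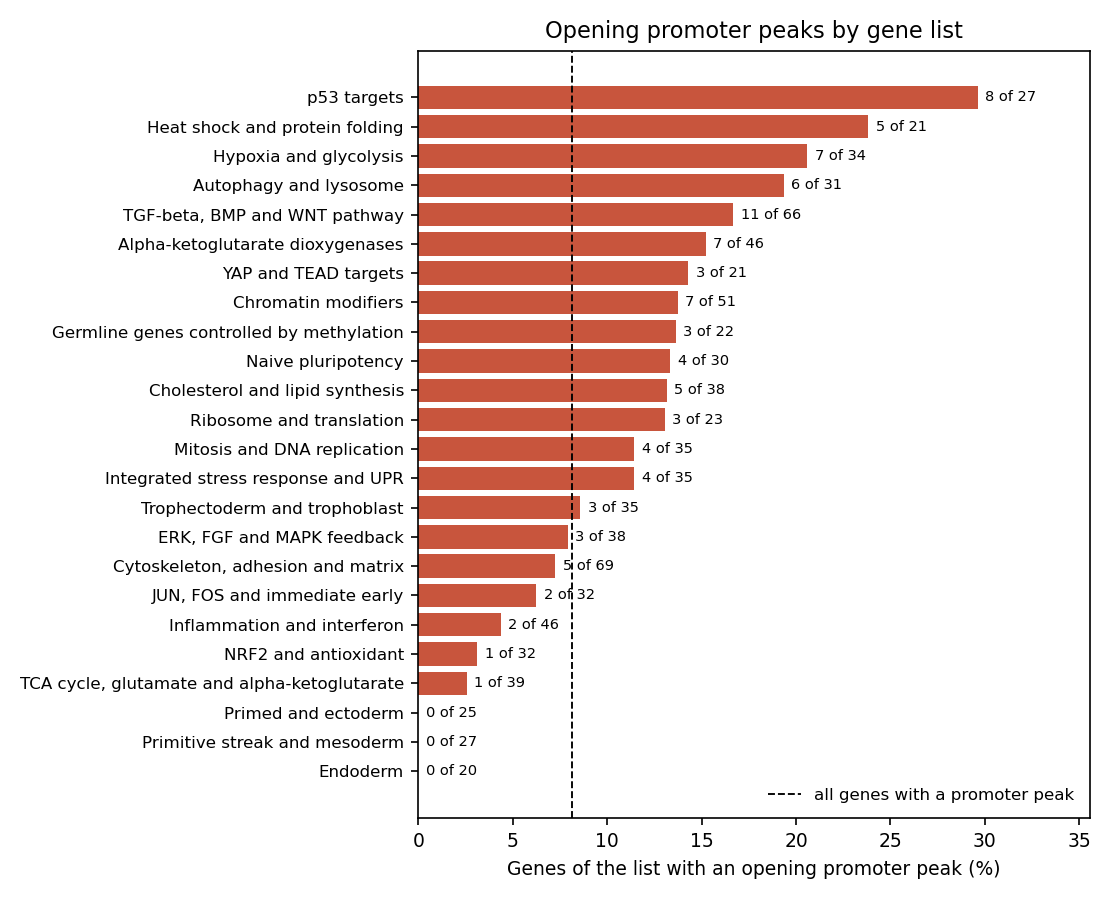
Share of the genes of each list that had an opening promoter peak (x, %), among its genes with any promoter peak, whose numbers stand at the bars. The dashed line marks the 8.16% of all genes. The list labelled p53 targets, which also holds p53 and its inhibitors, has the longest bar, with 8 of 27 genes.

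The transcription factor p53 answers DNA damage and other stress. The list of p53, its inhibitors and its target genes had the highest share of the 24 lists, with 8 of 27 genes and 11 of 81 promoter peaks (13.6%). The median log2 ratio over all 81 was 0.24, against 0.12 for all promoter peaks. The 81 include the 11 opening peaks, which the rule chose for a high ratio, and the median without them was not computed. GADD45B, a stress sensor gene that is also on the list of YAP and TEAD targets, had 2 opening peaks in its introns. The larger had 1.45, 1.47 and 1.11 CPM in control and 4.14, 3.03 and 3.22 CPM with dm-αKG. CDKN1A encodes the cell cycle inhibitor p21. Its 2 opening peaks lay in the first intron, and the one that holds the AP-1 match printed above (chr6:36679264-36679463) went from 1.55, 1.81 and 2.35 to 4.99, 4.41 and 4.45 CPM. The strongest CDKN1A promoter peak, 30 bp before a start, had 23.6, 23.3 and 20.4 CPM in control and 24.0, 21.3 and 22.3 CPM with dm-αKG, and these overlap. The death receptor genes TNFRSF10B and FAS, PHLDA3, SESN1, the DNA repair gene XPC and the p53 inhibitor gene MDM4 had log2 ratios between 0.72 and 0.94.

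The integrated stress response and unfolded protein response list had 4 of 35 genes (7 of 113 peaks), namely GDF15 and ATF4, described above, with SESN2 and the chaperone gene HSPA5. SESN2, a stress-induced regulator of mTORC1, had 2.50, 2.31 and 1.86 CPM in control and 4.14, 4.54 and 3.38 CPM with dm-αKG in a coding exon. Heat shock and protein folding genes had 5 of 21 (HSPD1, CHORDC1, HSPA1B, BAG3 and HSPB8, log2 ratios 0.88 to 0.71), of which HSPA1B has a near-identical copy, HSPA1A. Autophagy and lysosome genes had 6 of 31, led by ATP6V0D2, a proton pump subunit, at 1.43 CPM in control and 3.81 CPM with dm-αKG on average. Of the NRF2 and antioxidant genes, 1 of 32 had an opening peak, TALDO1, and of the JUN, FOS and immediate early genes 2 of 32, FOSL1 and JUNB.

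Among metabolic genes, the hypoxia and glycolysis list had 7 of 34 genes (8 of 133 peaks). ANKRD37, a target of hypoxia-inducible factor, had 1.86, 1.89 and 1.86 CPM in control and 4.10, 2.90 and 4.07 CPM with dm-αKG. VEGFA, the vascular growth factor gene, went from 1.55, 2.10 and 2.60 to 4.70, 4.41 and 2.61 CPM, where the lowest dm-αKG library was at the level of the highest control. SLC16A3, a lactate exporter gene, had 2 opening peaks with log2 ratios of 0.80 and 0.77, and ENO1, PFKFB4 and NDRG1 lay between 0.71 and 0.79. Cholesterol and lipid synthesis genes had 5 of 38, with SC5D, MVD, FASN and LSS among them. The list of citric acid cycle, glutamate and α-ketoglutarate genes had 1 of 39, SDHA.

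The dioxygenases that use α-ketoglutarate had 7 of 46 genes, each with 1 opening peak (7 of 136 peaks, 5.15%). The largest ratios were at ALKBH3 and KDM5A, with log2 ratios of 1.44 and 1.07, with control counts of 10, 7 and 10 at the first and 28, 30 and 10 at the second. KDM5B, a demethylase of histone H3 lysine 4, had more counts and went from 3.45, 4.38 and 5.26 to 9.36, 9.22 and 7.98 CPM. TET1, which oxidizes 5-methylcytosine, had 1.55, 1.64 and 1.24 CPM in control and 2.98, 2.44 and 2.84 CPM with dm-αKG in the first intron. Its strongest peak had an edgeR log2 fold change of 0.38 ± 0.11 (standard error, adjusted p = 0.0081). ALKBH1, KDM4C and KDM3B lay between 0.72 and 1.03.

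The chromatin modifiers had 7 of 51 genes (10 of 220 peaks). Besides EP300 these included the DNA methyltransferase gene DNMT1, the related gene DNMT3L, the deacetylases HDAC1 and SIRT1, and the Polycomb subunit SUZ12. The DNMT1 peak was weak, with counts of 17, 7 and 8 in control and 57, 14 and 14 with dm-αKG. The strongest DNMT1 promoter peak moved the other way and fell, with an edgeR log2 fold change of -0.38 ± 0.11 (standard error, adjusted p = 0.0106).

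Of the naive pluripotency genes, 4 of 30 had opening peaks. KLF5 had one in its coding exon, with 2.54, 2.73 and 2.23 CPM in control and 5.70, 6.91 and 3.76 CPM with dm-αKG, and one in its first intron. The KLF5 start peak had 53.6, 51.0 and 54.7 CPM and then 47.9, 54.6 and 48.5 CPM, which overlap. POU5F1, which encodes OCT4, had a weak opening peak in an intron, with 0.682, 0.883 and 1.24 CPM in control and 1.83, 1.51 and 2.38 CPM with dm-αKG, beside a peak 94 bp before a start with 22.7, 24.5 and 26.0 CPM in control and 28.3, 24.3 and 29.6 CPM with dm-αKG. PRDM14 and DNMT3L were the other two. The median log2 ratio over all 86 promoter peaks of this list was -0.02. Trophectoderm and trophoblast genes had 3 of 35, TP63, DLX3 and ABCG2, near the share of all genes. Of their 138 promoter peaks, 3 opened (2.17%) and 4 met the mirrored rule. Endoderm (20 genes with a promoter peak), primed and ectoderm (25) and primitive streak and mesoderm genes (27) had 0, with 0 of 69, 87 and 96 promoter peaks. The mirrored rule was met by 0, 0 and 3 of these peaks.

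Genes of the TGF-β, BMP and WNT pathways had 11 of 66 (13 of 244 peaks), with TGFBR3, the pathway inhibitor AXIN1 and the BMP target ID1 at log2 ratios of 1.01, 1.00 and 0.92. Cytoskeleton, adhesion and matrix genes had 5 of 69, and inflammation and interferon genes 2 of 46. Germline genes whose promoters are methylated in somatic cells had 3 of 22, among them the testis bromodomain gene BRDT with 2 peaks. Of the 38 promoter peaks of this list, 4 opened and 3 met the mirrored rule. YAP and TEAD targets had 3 of 21, ERK, FGF and MAPK feedback genes 3 of 38, and genes of mitosis and DNA replication 4 of 35, including CDKN2A, CDKN1B and AURKB. From the ribosome and translation list 3 of 23 had an opening peak, and EEF1A1, the elongation factor gene, stood out in level, with means of 5.53 CPM in control and 14.3 CPM with dm-αKG.

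Genes of general cell functions were also present. The family of RNA splicing and processing factors, chosen after the genes had been seen, had 27 of 208 genes (32 of 551 peaks, 5.81%), led by SFSWAP, SREK1IP1 and SNU13. Mitochondrial ribosomal proteins had 8 of 77, with 3 opening peaks at MRPL20, and ubiquitin and proteasome genes 25 of 213, both chosen in the same way. Cytosolic ribosomal proteins, from the lists written earlier, had 10 of 94 (RPL22, RPL27 and RPS15 first), solute carriers 21 of 315, and zinc finger genes 63 of 533. By chromosome, the share of promoter peaks that opened was highest on chromosomes 19 (168 of 3004, 5.59%), 17 (5.49%), 22 (5.35%) and 16 (4.24%), and lowest on 21 (1.86%), 10 and 2. The median log2 ratio over all promoter peaks of chromosomes 19, 17, 22 and 16 was 0.22, 0.20, 0.21 and 0.17. It was 0.13, 0.12 and 0.08 on 21, 10 and 2, and 0.12 for all promoter peaks. On chromosome 19, the zinc finger genes had 44 opening peaks of 680 (6.47%), and the other genes of the chromosome had 124 of 2324 (5.34%), whereas zinc finger genes elsewhere had 24 of 801 (3.00%).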

How the data were processed

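The 6 ATAC-seq libraries, 3 of control and 3 of dm-αKG-treated nES cells, were grouped by the treatment in the labels. The replicates are biological replicates of the study. Per the submitters' processing notes and the methods, reads were trimmed with cutadapt, aligned to hg38 with Bowtie2, deduplicated with Picard and processed with the ENCODE ATAC-seq pipeline per treatment, with peak calling by MACS2. The authors deposited 1 list of reproducible peaks per treatment, with a fold enrichment and a q-value as −log10 for each peak, of which only the summit positions were used. The authors merged summits widened to 200 bp and deposited raw counts of reads per merged peak and library (bedtools 2.28.0), without normalization. Mouse feeder cells were used before seeding and removed. Depth was 13025674 to 26828622 counts per library in these peaks, and all columns of the count table were assigned.

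CPM were computed from the counts over the total in peaks of each library. Starts were those of protein-coding transcripts of GENCODE 44, within 1000 bp of the peak centre, and positions refer to the nearest one. edgeR 4.0.16 (R 4.3.3) was fitted to all peaks with TMM scaling, a quasi-likelihood test and Benjamini-Hochberg adjustment over all peaks, after a check on simulated data. DESeq2 1.42.0 and other scalings were alternatives. Replicate numbers were not treated as pairs, since the correlations of same-numbered libraries' deviations lay between -0.02 and 0.01. CPM were not divided by peak width except where stated. Motifs were searched in the hg38 sequence with pysam 0.24.0.

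The members, gene lists and families were chosen with earlier results of these data known. The peaks named are the 10 with the largest ratio and at least 1 CPM with dm-αKG, the 10 with the highest mean CPM, peaks of genes in a list or family with at least 2 opening genes, taken in order of ratio, peaks of genes with 2 or more, 3 on each side of the threshold, and those with an AP-1, NRF2, cAMP response or ATF4 motif, of which sequences were shown in order of ratio, without those of some chromosomes. Genes outside this rule (SDHA and TALDO1) are named because each is the only one of its list, and the strongest peak of a named gene for comparison. Of the other motifs, 7 are given, as shares only, apart from the FOX matches in the ERBB2 sequence.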

Additional observations from a re-analysis of the deposited data

How the results depend on the processing

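The number of opening peaks follows the threshold. It was 3554 at a log2 ratio of 0.5 and 305 at 1.0, against 1387 at 0.7, and in every case the median position was downstream of the start (200 and 250 bp). With 1 library left out, between 1398 and 2164 peaks met the rule, the highest number without dm-αKG replicate 3, and of the 1387 between 1110 and 1260 still met it. CPM scaled by TMM gave 1275 and by RLE 1283, a centre within 500 bp 981, at least 10 counts in every library 1296, and the starts of all transcripts of protein-coding genes, an alternative added after the data were seen, 1569. The median position lay between 182 and 225 bp downstream in all of these but the last, where it was not computed for the added starts.

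In fits with 1 library left out, between 829 and 1132 opening peaks had an adjusted p below 0.05, against 1204 with all, and the median log2 fold change lay between 0.82 and 0.86. Of all peaks, these fits called between 4.55% and 7.63% as higher with dm-αKG. DESeq2 called 843 (25 had no adjusted p) and 3.65% of all peaks as higher, against 7.43% with edgeR. The replicate block, tried although same-numbered libraries were not paired, gave 1173 and a median of 0.82, with 7.18% of all peaks called higher. None of the 131 peaks of genes named above changed direction in a fit that gave it a value. The rule, with every dm-αKG library above every control, leaves little room for such a change, so this is no support. All fits gave a value for every peak except DESeq2 (129 with an adjusted p) and the minimum of 10 counts in every library (122). Up to 28 of the 131 (without dm-αKG replicate 1) lost an adjusted p below 0.05, and 25 did with DESeq2. Weak peaks are limited by depth, with a median count of 45 per library, and groups of 3 are too small to show a stray library at a single peak.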
